A study of Homo sapiens with 6 samples.

Results

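CELA1, BIN2, SMAGP, DAZAP2, GALNT6 and SLC4A8 are 6 neighbouring genes on chromosome 12, out of 16832 gene symbols with RNA-seq values. The cells were U251, an established line from a human glioma, labelled wild type. In 3 libraries the cells had been given SLCDS, a combination of small molecules that the labels do not spell out, for 18 days, and in the other 3, the controls, they had been given PBS without it, for a time that the labels leave unstated. CELA1 was chosen because it was the largest decrease between these groups and BIN2 because it was low beside it, so their values in this contrast are a description and carry no test. SMAGP, DAZAP2, GALNT6 and SLC4A8 were chosen by position as the next genes on either side, not by their own values. All 6 symbols are listed in every library, and 5 of them passed the expression filter (1 FPKM or higher in no fewer than 3 libraries); GALNT6 did not, and BIN2 passed only through the control libraries.

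The products of these genes have little in common. CELA1 encodes a chymotrypsin-like serine protease of the pancreatic elastase family, which is secreted as a proenzyme and can cleave elastin; the human gene is nearly silent in the pancreas and is known from the skin. BIN2 is a membrane-bending BAR domain protein best known from leukocytes and platelets. SMAGP is a small glycoprotein of epithelial cell contacts, DAZAP2 a widely expressed proline-rich adaptor, GALNT6 an enzyme that starts mucin-type O-glycosylation, and SLC4A8 a sodium-driven chloride and bicarbonate exchanger that neurons use to regulate their pH.

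In the GENCODE annotation (release 29, GRCh38) the genes follow each other in the order DAZAP2, SMAGP, BIN2, CELA1, GALNT6, SLC4A8. DAZAP2 and SLC4A8 lie on the plus strand and the 4 genes between them on the minus strand, so that CELA1 and BIN2 are read in the same direction, CELA1 first. CELA1 and BIN2 share no exonic base with another annotated gene. DAZAP2 and SMAGP share 486 exonic bases (8.5% and 13.7% of their own), and GALNT6 and SLC4A8 share 392 (5.3% and 2.2%). Whether fragments were counted by strand is not given in the sources used here, so fragments from the shared bases cannot be assigned to 1 of the pair.

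Promoter windows of 300 bases (250 before and 50 after the annotated start) were read from RefSeq on GRCh38.p14 for the 4 members listed there, CELA1, DAZAP2, SMAGP and SLC4A8. CELA1 is shown because it holds the largest difference, and DAZAP2 because it is the most abundant neighbour. The CELA1 window is chr12:51346630-51346929 on the minus strand, with the letters TATAAA in capitals. The DAZAP2 window is chr12:51238576-51238875 on the plus strand, with the letters GGGCGG in capitals. Both are written 5′ to 3′ along their gene.
CELA1: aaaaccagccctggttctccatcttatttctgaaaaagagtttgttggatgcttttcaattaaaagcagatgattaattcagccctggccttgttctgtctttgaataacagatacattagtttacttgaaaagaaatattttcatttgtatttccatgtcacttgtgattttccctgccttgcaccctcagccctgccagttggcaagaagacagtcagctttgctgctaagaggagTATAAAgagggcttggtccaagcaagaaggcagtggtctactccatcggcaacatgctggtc
DAZAP2: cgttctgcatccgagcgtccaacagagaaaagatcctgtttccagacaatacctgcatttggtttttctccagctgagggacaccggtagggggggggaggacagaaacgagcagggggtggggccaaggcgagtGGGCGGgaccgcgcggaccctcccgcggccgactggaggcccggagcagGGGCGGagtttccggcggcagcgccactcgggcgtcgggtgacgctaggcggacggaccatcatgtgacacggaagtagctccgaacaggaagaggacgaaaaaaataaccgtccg
The 2 windows differed in base composition. The CELA1 window had a GC content of 42.0% and 1 CpG, and 14.9% of 35116 listed windows had a lower GC content. The DAZAP2 window had 63.3% and 29 CpGs, beside medians of 58.7% and 14 over all windows. The windows of SMAGP (66.7% and 74.3%, from 2 listed starts) and SLC4A8 (66.3% and 72.0%, also 2 starts) were GC-rich like that of DAZAP2. Searched on both strands, the TATA box letters TATAAA were present in the CELA1 window alone among these, beginning 12 bases before the annotated start, and in 11.5% of all windows. The GC box letters GGGCGG were present in DAZAP2 (2 matches) and SMAGP and in 45.0% of all windows. The E-box letters CANNTG occurred 4 times in CELA1, also in DAZAP2 and SLC4A8, and in 68.7% of all windows. A match is a run of letters and not a measured binding site.

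The deposited values are FPKM, fragments scaled to transcript length and library size, which can be compared between genes. Their smallest steps are whole fragments, which were recovered for 99.82% of the symbols. Estimated depth was about 16260000 to 17170000 fragments per library. The 3 libraries of a group carry separate numbers, but nothing says that they came from separate cultures, so p-values here measure the spread between libraries, which may be technical. Control replicate 3 stood apart: the median chi-square of its fragments against the other controls was 14.88 and 14.39 per gene. Within the other pairs of a group the median was 1.03 to 1.29. Counting noise alone would give a median below 1, so these pairs also differed by more than counting noise. The cell type was checked on 10 glioma and astrocyte markers, whose summed level was 2475 to 2558 FPKM in SLCDS and 2537 to 2958 FPKM in control, most of it VIM, with AQP4 and ALDH1L1 below 0.5 FPKM in every library. By mean 4 of the 10 were lower in SLCDS and 6 higher. Without overlap 4 were lower and 2, NES and CD44, were higher, beside 29.1% of all tested genes in either direction. Of the 8 tested markers GFAP, an intermediate filament gene used as an astrocyte marker, was the 1 that passed (6.09% of all tested genes did). It fell from 338.6 ± 23.3 FPKM in control to 135.3 ± 7.31 FPKM in SLCDS (SD, n = 3 each; limma, adjusted p = 0.000596). At an unadjusted p under 0.05 there were 5 of the 8 (18.6% of all tested genes). Without control replicate 3, 3 of the 8 were higher and 4 lower, in a fit where 27.7% of all tested genes passed.

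CELA1 was the lowest-ranked of 11506 tested genes by fold change. Its level was 33.9, 29.5 and 42.9 FPKM in control replicates 1 to 3 and 2.62, 2.41 and 2.87 FPKM in SLCDS replicates 1 to 3. Every SLCDS library lay far below every control library, and control replicate 3 was the highest. Groups that did not overlap were found for 29.1% of tested genes, 13.6% with the lower values in SLCDS, and CELA1 and BIN2, chosen on this contrast, are among these by choice. The means were 35.5 ± 6.86 FPKM (SD, n = 3) and 2.63 ± 0.233 FPKM (SD, n = 3), a 13.5-fold ratio, and the log2 fold change on the log2(FPKM + 1) scale was -3.31 (SE 0.14). CELA1 is short, and these levels rest on 527, 457 and 694 fragments in the controls and 42, 38 and 47 in SLCDS. In SLCDS the transcript was low but still counted: the 127 fragments of the 3 libraries have a 95% Poisson interval of 105.9 to 151.1, which covers counting error only. In bulk RNA, fewer cells that make a transcript and less transcript per cell cannot be told apart. The next gene in that ranking among those with a mean of at least 5 FPKM in the higher group was LEFTY2, an antagonist of NODAL signalling (log2 fold change -2.69), followed by MGP (-1.73) and VCAM1 (-1.66), which were not chosen.

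**Figure D1:**
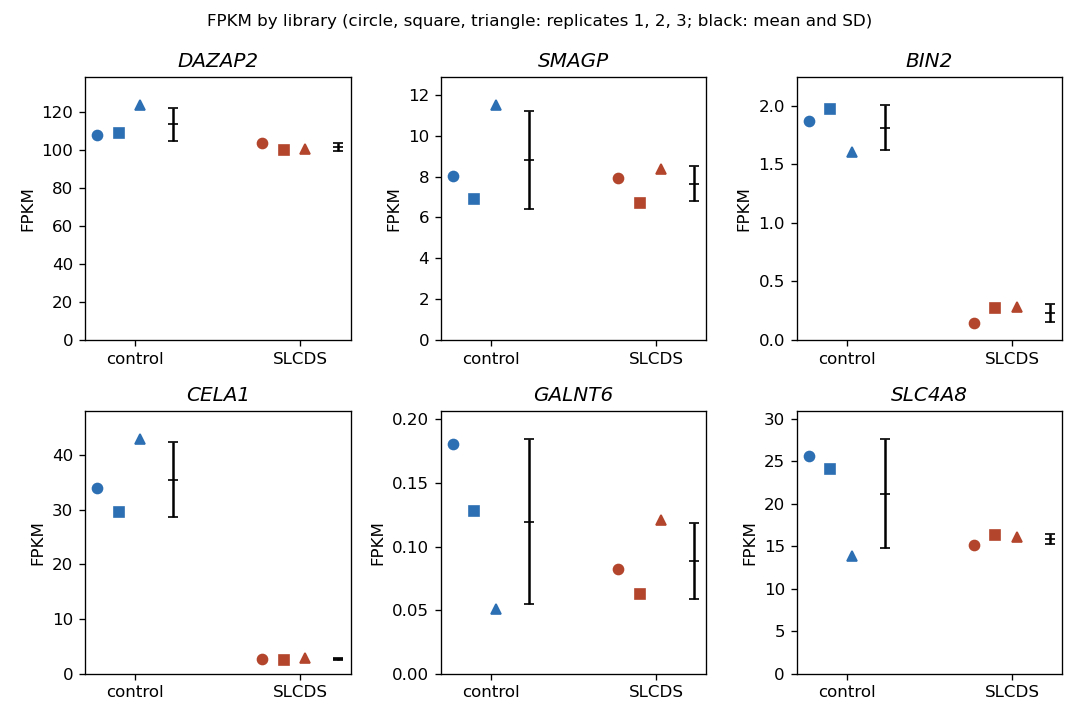
FPKM of each gene (vertical axes, linear from 0) in the 3 control and 3 SLCDS libraries, with black bars for the mean and SD of each group; circles, squares and triangles are replicates 1, 2 and 3. CELA1 and BIN2 do not overlap between groups, and control replicate 3 (triangle) lies at 13.8 FPKM for SLC4A8, below all 3 SLCDS libraries.

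BIN2 was low in all libraries and lower in SLCDS. It stood at 1.87, 1.97 and 1.60 FPKM in control replicates 1 to 3 and at 0.145, 0.270 and 0.284 FPKM in SLCDS replicates 1 to 3. The groups did not overlap. These are 75, 79 and 67 fragments against 6, 11 and 12, so the SLCDS level is known only coarsely: 29 fragments in all have a 95% Poisson interval of 19.4 to 41.7, against 221 (192.8 to 252.1) in control. The ratio of means was 7.80, the third largest decrease of all tested genes by that measure. The log2 fold change was -1.19 (SE 0.09) and ranked 15, since the added 1 shrinks differences of low genes: with 0.1 in its place it was -2.55, and from the recovered fragments with limma-voom it was -2.95, in a fit where 6.14% of tested genes passed.

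Within the control group CELA1 and BIN2 were ordered differently. CELA1 was highest and BIN2 lowest in control replicate 3. For BIN2 this order is within counting error. Its 67 fragments there have a 95% Poisson interval of 51.9 to 85.1, which overlaps those of control replicates 1 (59.0 to 94.0) and 2 (62.6 to 98.5). CELA1 exceeded BIN2 by 18.2, 15.0 and 26.8 times in FPKM in control replicates 1 to 3 and by 18.1, 8.94 and 10.1 times in SLCDS replicates 1 to 3. The ranges of the ratio overlapped through SLCDS replicate 1 alone, where BIN2 had 6 fragments. Across the 6 libraries the log2 values of CELA1 and BIN2 had a Pearson r of 0.98 (n = 6), given as a description, since both genes were chosen for the group difference that sets it; 80 genes followed CELA1 more closely. The 5 tested genes most like CELA1 were YWHAQ, PLCD3, WARS2, ENGASE and SYPL1 (r from 0.996 to 0.9995, n = 6), and those most like BIN2 were ITGB4, PRRT2, MTARC2, GOLM1 and NDRG3 (r from 0.996 to 0.999, n = 6). YWHAQ, a 14-3-3 protein gene, stood at 208 ± 3.78 FPKM in control and 159 ± 0.854 FPKM in SLCDS (SD, n = 3 each). As a ratio of means this difference was far smaller than that of CELA1 (13.5-fold). ITGB4, the integrin subunit of hemidesmosomes, stood at 58.5 ± 1.05 and 40.5 ± 0.862 FPKM.

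**Figure D2:**
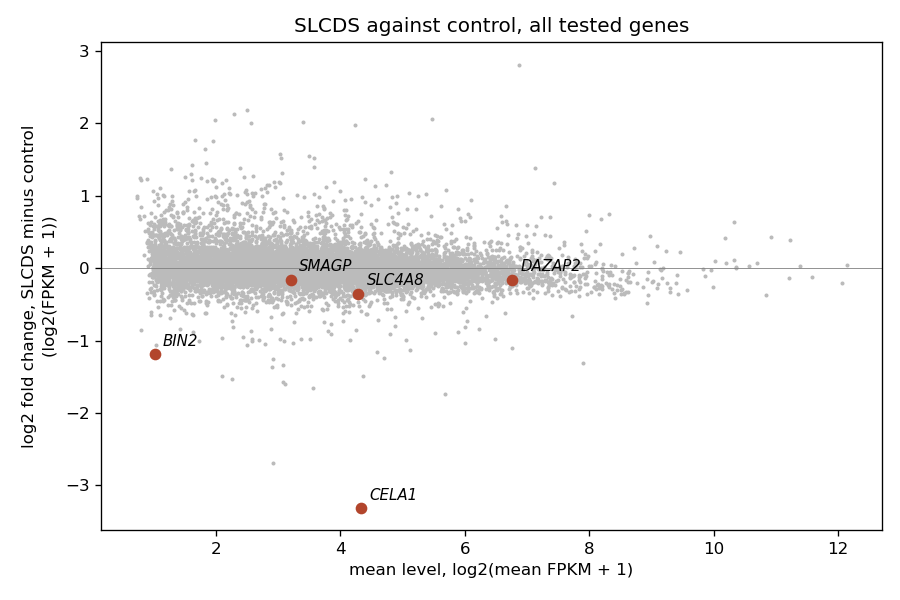
Log2 fold change of SLCDS against control (vertical axis, log2(FPKM + 1) scale) against mean level (horizontal axis, log2(mean FPKM + 1)) for the 11506 tested genes in grey, with the 5 tested members in red. CELA1 lies lowest at -3.31, BIN2 lies at -1.19 at the low end of expression, and the other 3 lie within the grey cloud.

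None of the 3 tested neighbours passed over all libraries (limma, adjusted p under 0.05 over all tested genes; 6.09% of tested genes passed, 1.82% as lower and 4.28% as higher). At an unadjusted p under 0.05, and with limma-voom, 0 of the 3 passed as well (18.6% and 6.14% of all tested genes did). DAZAP2 stood at 107.8, 109 and 123 FPKM in control replicates 1 to 3 and at 103.7, 99.97 and 100.1 FPKM in SLCDS replicates 1 to 3. The groups did not overlap, but the difference was small: the log2 fold change was -0.16 (95% interval -0.35 to 0.03; limma, adjusted p = 0.356). Without control replicate 3 it was -0.10 (limma, adjusted p = 0.0796). With each library's trend with transcript length removed it was -0.15 and passed (limma, adjusted p = 0.043), as did 13.3% of tested genes. In 17 other settings its adjusted p lay between 0.043 and 0.724.

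SMAGP, the neighbour of BIN2 on the same strand, did not separate the groups. It stood at 8.02, 6.92 and 11.5 FPKM in control replicates 1 to 3 and at 7.92, 6.70 and 8.36 FPKM in SLCDS replicates 1 to 3. The SLCDS values lay inside the range of the controls except for the lowest, and control replicate 3 was alone at the top. The log2 fold change was -0.16 (95% interval -0.56 to 0.25; limma, adjusted p = 0.699), and without control replicate 3 it was 0.03 (limma, adjusted p = 0.837). In 17 other settings its adjusted p lay between 0.397 and 0.96.

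GALNT6, the neighbour of CELA1 on the other side and on the same strand, was at the edge of detection. It stood at 0.180, 0.128 and 0.0510 FPKM in control replicates 1 to 3 and at 0.0822, 0.0626 and 0.121 FPKM in SLCDS replicates 1 to 3. These are 17, 12 and 5 fragments against 8, 6 and 12. The group totals of 34 (95% Poisson interval 23.6 to 47.5) and 26 (17.0 to 38.1) overlap, so a difference was not detectable at this depth. With no expression filter its log2 fold change was -0.04 (limma, adjusted p = 0.743).

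SLC4A8 was the member whose reading turned on 1 library. It stood at 25.7, 24.1 and 13.8 FPKM in control replicates 1 to 3 and at 15.2, 16.3 and 16.1 FPKM in SLCDS replicates 1 to 3. The SLCDS libraries lay below controls 1 and 2 and above control 3. Over all libraries the log2 fold change was -0.35 (95% interval -0.85 to 0.14; limma, adjusted p = 0.448). Without control replicate 3 SLC4A8 was lower in SLCDS, with a log2 fold change of -0.62 (SE 0.05; limma, adjusted p = 2.09e-05), in a fit where 27.7% of tested genes passed (16% as higher, 11.8% as lower). It also passed with the length trend removed (-0.45; limma, adjusted p = 0.0183), where 13.3% passed, and in none of the 15 other alternatives, where adjusted p ranged up to 0.711. The depth behind these values was high, 3311 to 5901 fragments per library, so counting error is small beside the gap between control 3 and the other controls.

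**Figure D3:**
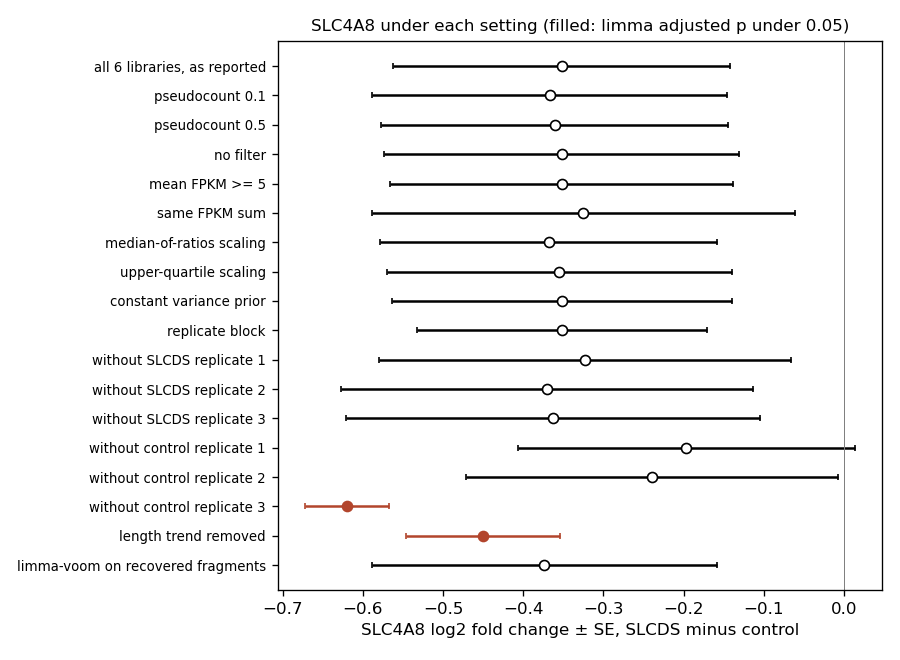
Log2 fold change of SLC4A8 in SLCDS against control with its SE (horizontal axis, log2(FPKM + 1) scale except for limma-voom, on log2 of fragments scaled to depth) under each setting (rows). All 18 estimates are below 0, and the filled points, without control replicate 3 (-0.62) and with the length trend removed (-0.45), passed in limma.

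Control replicate 3 differed from controls 1 and 2 by transcript length, and SLC4A8 is the longest of the 6. The FPKM steps imply counted lengths of 953 nucleotides for CELA1, 2027 for SMAGP, 2465 for BIN2, 2684 for DAZAP2, 5784 for GALNT6 and 14114 for SLC4A8. The single annotated CELA1 transcript is 952 nucleotides long. Relative to the mean of controls 1 and 2, control 3 had 1.35 times as much CELA1, 1.54 times SMAGP, 0.835 times BIN2, 1.14 times DAZAP2, 0.331 times GALNT6 and 0.556 times SLC4A8. Of the 4 shorter transcripts 3 were above 1, and both longer ones were below. The GALNT6 ratio is known only coarsely, since it rests on 5 fragments in control 3 against 17 and 12 in controls 1 and 2. Over tested genes the median difference of control 3 from the other controls was 0.55 on the log2(FPKM + 1) scale for 447 genes under 1000 nucleotides and -0.48 for 518 genes of 12000 or more, in steps between. For SLC4A8 it was -0.80, below the median of its band, with 16.6% of that band lower. For CELA1 it was 0.43 against a band median of 0.55. SLCDS libraries showed little of this trend against controls 1 and 2, with band medians from 0.09 for the shortest to -0.08 for the longest. What sets control replicate 3 apart was not tested. Without it, CELA1 and BIN2 had log2 fold changes of -3.17 and -1.25.

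**Figure D4:**
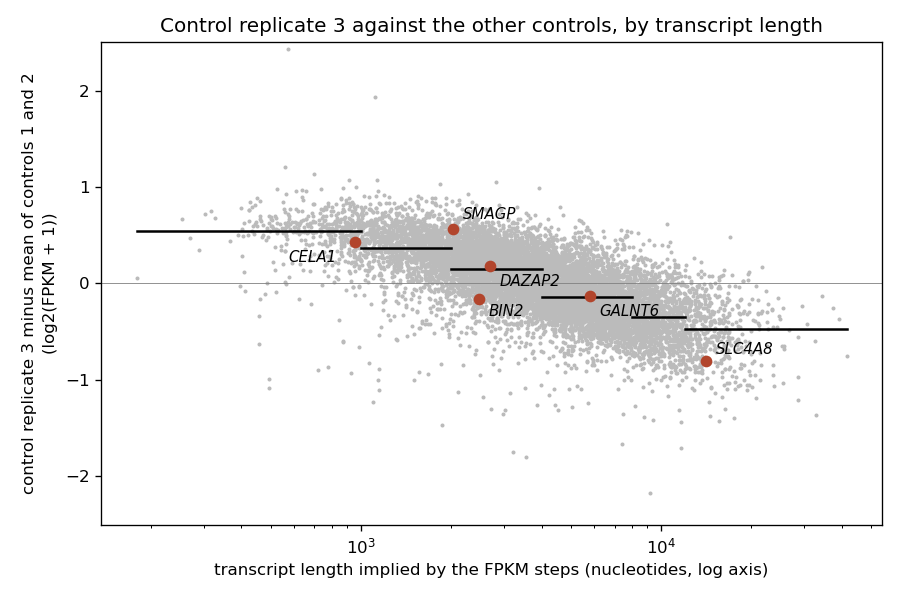
Difference of control replicate 3 from the mean of controls 1 and 2 (vertical axis, log2(FPKM + 1)) against counted transcript length (horizontal axis, nucleotides, log axis) for tested genes (grey), with the median of each length band (black lines) and the 6 members (red). The medians go from 0.55 under 1000 nucleotides to -0.48 at 12000 or more, and SLC4A8 lies at -0.80.

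Beyond the 6, the tested genes listed on either side had no decrease near that of CELA1. Of 6 tested genes beyond DAZAP2 and 2 beyond SLC4A8 none passed in limma (6.09% of all tested genes did). On each side 1 had an unadjusted p under 0.05 (POU6F1 and SCN8A, beside 18.6% of all tested genes). With limma-voom 1 passed (POU6F1, beside 6.14% of all tested genes). The median log2 fold changes beyond DAZAP2 and beyond SLC4A8 were -0.06 and 0.25, against 0 over all tested genes. The nearest beyond DAZAP2, the POU factor gene POU6F1, stood at 10.1, 9.93 and 10.1 FPKM in control replicates 1 to 3 and at 8.16, 7.68 and 8.29 FPKM in SLCDS replicates 1 to 3. Its groups did not overlap, and it just missed the threshold (log2 fold change -0.29, SE 0.07, limma adjusted p = 0.057). It passed in 3 of 17 other settings. Among them was the fit without control replicate 3 (-0.28, limma adjusted p = 0.00536), where 27.7% of tested genes passed. TFCP2 (-0.04), CSRNP2 (-0.01), LETMD1 (-0.06), SLC11A2 (-0.05) and METTL7A (-0.13) lay close to 0. On the other side the sodium channel gene SCN8A stood at 1.75 ± 0.548 FPKM in control and 2.65 ± 0.145 FPKM in SLCDS (log2 fold change 0.43; limma, adjusted p = 0.179), opposite in sign to its neighbour SLC4A8. Without control replicate 3 SCN8A was higher by 0.25 (limma, adjusted p = 0.0348), in that fit where 27.7% of tested genes passed. The adjusted p of SCN8A lay between 0.0245 and 0.468 in 16 other settings. ACVR1B (0.06) lay close to 0, and FIGNL2, ANKRD33, ACVRL1, TAMALIN, NR4A1 and HIGD1C were under the filter.

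**Figure D5:**
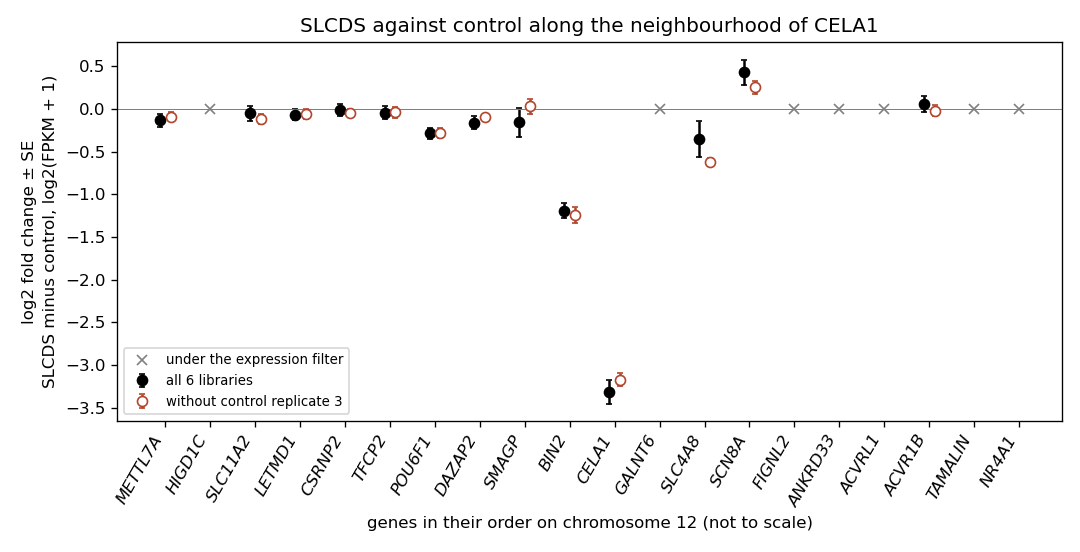
Log2 fold change with its SE (vertical axis, SLCDS minus control on the log2(FPKM + 1) scale) for the members and the listed genes around them, in their order along chromosome 12, over all libraries (black) and without control replicate 3 (open red); crosses mark genes under the filter. CELA1 (-3.31) and BIN2 (-1.19) stand next to each other below genes whose black points lie between -0.35 and 0.43; without control replicate 3 SLC4A8 lies at -0.62.

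The relatives and partners of each product were looked up as lists. Most relatives of CELA1 were under the filter. Of 14 listed elastases, chymotrypsins, trypsins and neutrophil proteases 11 were in the files and 3 were tested. None of the 3 passed in limma, at an unadjusted p under 0.05 or with limma-voom. Over all tested genes 6.09%, 18.6% and 6.14% did. The median log2 fold change of the 3 was -0.13. The chymotrypsin-like protease gene CTRL stood at 3.29 ± 0.522 FPKM in control and 2.93 ± 0.537 FPKM in SLCDS (limma, adjusted p = 0.689), and PRTN3, a neutrophil protease gene, at 1.84 ± 0.806 and 1.30 ± 0.198 FPKM (limma, adjusted p = 0.555). The paralogues CELA2A and CELA2B did not exceed 0.27 FPKM in any library. Of 9 listed protease inhibitors 4 were tested and 2 rose (6.09% of all tested genes passed). A2M, the broad protease trap alpha-2-macroglobulin, rose from 1.73, 2.06 and 1.89 FPKM in control replicates 1 to 3 to 6.11, 6.90 and 6.68 FPKM in SLCDS replicates 1 to 3 (log2 fold change 1.39, SE 0.08; limma, adjusted p = 0.000402). SERPING1, which encodes the C1 inhibitor, also rose, with 0.389 ± 0.0345 FPKM in control and 1.64 ± 0.0978 FPKM in SLCDS (limma, adjusted p = 0.000733). It was below 1 FPKM in every control library, so it met the expression filter only through SLCDS. It passed in all 16 other settings, among them the fit with no filter. Without control replicate 3, 3 inhibitors were higher and 1 lower, and no protease passed (27.7% of all tested genes did).

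Elastic fibre genes moved in both directions. Of 20 listed, 12 were tested, 3 rose and 1 fell (6.09% of all tested genes passed), with a median of 0.13. EMILIN1, a glycoprotein of elastic fibres, stood at 0.754 ± 0.248 FPKM in control and rose to 2.21 ± 0.190 FPKM in SLCDS (limma, adjusted p = 0.00532). EMILIN1 met the expression filter only through SLCDS, and it passed in all 16 other settings, among them the fit with no filter. LOXL1, a cross-linking oxidase, rose from 9.17 ± 1.70 to 14.8 ± 0.563 FPKM (limma, adjusted p = 0.0235, passing in 12 of 17 other settings). FBLN1, the fibulin-1 gene, fell from 23.7 ± 3.58 to 12.6 ± 0.528 FPKM (limma, adjusted p = 0.00456). The substrate itself was low: ELN, elastin, stood at 0.496 ± 0.140 FPKM in control and 0.546 ± 0.0181 FPKM in SLCDS, under the filter. Without control replicate 3, 6 of the 12 were higher and 2 lower, in a fit where 27.7% of all tested genes passed.

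Several relatives of BIN2 were far more abundant than BIN2. Of 12 listed BAR domain proteins 9 were tested and none passed in limma or limma-voom (6.09% and 6.14% of all tested genes did). At an unadjusted p under 0.05 there was 1 of the 9 (18.6% of all tested genes), and their median was -0.13. SH3GL1 stood at 45.3 ± 8.95 FPKM in control and 40.8 ± 1.37 FPKM in SLCDS and SH3GLB2 at 37.5 ± 6.20 and 33.2 ± 0.965 FPKM, both endophilin genes of membrane traffic. BIN1 was at 10.4 FPKM or more in every library. Among 25 listed O-glycosylation genes, 13 were tested, 1 rose and 3 fell (6.09% of all tested genes passed), and without control replicate 3 the counts were 5 and 3 (27.7% passed). GALNT7 rose from 13.2 ± 1.57 to 20.4 ± 0.238 FPKM (limma, adjusted p = 0.0125; 13 of 17 other settings), while GALNT16 (3.42 ± 0.362 FPKM in control) fell to 1.20 ± 0.0299 FPKM (limma, adjusted p = 0.001), as did the sialyltransferase gene ST6GALNAC2 from 1.62 ± 0.414 to 0.669 ± 0.199 FPKM (limma, adjusted p = 0.042; 9 of 16 other settings). ST6GALNAC2 was below 1 FPKM in every SLCDS library and met the expression filter only through the controls. In the list of bicarbonate transporters and carbonic anhydrases 2 of 9 tested members rose and none fell (median 0.24; 6.09% of all tested genes passed), and without control replicate 3 the counts were 5 and 2 (27.7% passed). SLC4A4, a sodium bicarbonate cotransporter gene, stood at 2.08 ± 0.781 FPKM in control and rose to 5.17 ± 0.504 FPKM in SLCDS (limma, adjusted p = 0.0235; 13 of 16 other settings). CA12, a membrane-bound carbonic anhydrase gene, stood at 0.707 ± 0.139 FPKM and rose to 1.97 ± 0.110 FPKM (limma, adjusted p = 0.00243). CA12 was below 1 FPKM in every control library and met the expression filter only through SLCDS. It passed in all 16 other settings, among them the fit with no filter.

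Markers of pancreatic acinar cells were at trace levels, and those of leukocytes and platelets were low. All 7 pancreatic acinar markers in the files, of 13 listed, were below 1 FPKM in every library, with a summed level of 0.977 to 1.45 FPKM in SLCDS and 0.864 to 1.54 FPKM in control. The 14 leukocyte markers summed to 4.28 to 5.59 FPKM in SLCDS and 4.78 to 6.37 FPKM in control, and 11 of them were below 1 FPKM throughout. By mean, 12 of the 14 were lower in SLCDS and 2 higher, and 4 were lower without overlap between the groups. Among tested genes 13.6% were so, but PTPRC, ITGAM and CSF1R were under the filter, and CD14 alone of the 4 was tested. No such share was computed for genes under the filter. None of the 3 tested markers passed in limma or limma-voom (6.09% and 6.14% of all tested genes did). Of these markers 1 had an unadjusted p under 0.05 (18.6% of all tested genes did). The most abundant of them, the actin-bundling protein gene LCP1, stood at 1.33 ± 0.146 FPKM in control and 1.83 ± 0.374 FPKM in SLCDS (limma, adjusted p = 0.267). The pan-leukocyte gene PTPRC had 14 fragments in the 3 controls and 3 in SLCDS, and the myeloid gene ITGAM had 12 and 1. The 5 platelet markers in the files, of 8 listed, summed to 1.79 to 2.24 FPKM in SLCDS and 2.32 to 2.87 FPKM in control. That sum is mostly ITGA2B (1.88 ± 0.242 FPKM in control, 1.34 ± 0.102 FPKM in SLCDS; limma, adjusted p = 0.12), and GP1BA and TUBB1 had the higher mean in SLCDS. The part of such cells in the level of BIN2 was not tested.

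Other marker lists were mixed within themselves. The 9 neuron markers summed to 51.5 to 52.7 FPKM in SLCDS and 63.6 to 64.0 FPKM in control, a difference carried by TUBB3 (39.4 ± 5.12 FPKM in control, 29.5 ± 1.08 FPKM in SLCDS) and MAP2 (18.5 ± 4.63 and 14.7 ± 0.485 FPKM). By mean 6 of the 9 were higher in SLCDS, and SNAP25, SYN1, ELAVL4 and STMN2 were so without overlap. TUBB3 was lower without overlap. Of all tested genes 29.1% did not overlap in either direction, 13.6% with the lower values in SLCDS. SYN1, ELAVL4 and STMN2 were under the filter, so these shares do not cover them. Of the 5 endothelial markers CDH5 alone exceeded 1 FPKM: it rose from 1.91 ± 0.634 to 4.81 ± 0.438 FPKM (limma, adjusted p = 0.0106), while 3 of the 5 had the lower mean in SLCDS. The 8 keratinocyte markers in the files summed to 15.7 to 30.5 FPKM in SLCDS and 13.3 to 21.1 FPKM in control and set 1 treated library apart: KRT5 stood at 0.372, 0.0810 and 8.28 FPKM in SLCDS replicates 1 to 3 and at 1.75, 1.32 and 1.34 FPKM in control replicates 1 to 3. CELA1 in that library, SLCDS replicate 3, was 2.87 FPKM, close to the 2.62 and 2.41 FPKM of the others, and without it the CELA1 log2 fold change was -3.36.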

How the data were processed

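Total RNA was sequenced in 3 SLCDS and 3 control libraries. The values deposited by the authors are FPKM per gene symbol, 1 file per library. Aligner, counter and gene models: not given in the sources used here. Mouse builds are what the submitters' processing notes name (GRCm38 and mm10). The depth was set at the value where the largest number of single-transcript genes matched their human transcript length, which was a minority of them. At that depth 39.4% of 1307 had a length, read from the FPKM steps, within 2% of the human transcript. Mouse transcripts were not tried. Relative depth is the commonest ratio of equal low values, and whole fragments were recovered at a relative tolerance of 4e-07, up to a factor common to all 6 libraries.

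Values were tested as log2(FPKM + 1), which understates changes of low genes. Genes with FPKM of at least 1 in 3 libraries (11506) were fitted in limma 3.58.1 (R 4.3.3) with a variance prior following the mean, 2-sided, with Benjamini-Hochberg adjustment over all of them; "rose" and "fell" mean adjusted p under 0.05. On simulated data of 11506 genes the fit was tested for recovering known changes. Groups and numbers came from the titles. Members and lists were chosen with earlier results of these data known. Genes are named by rule: the members, tested flanking genes, up to 3 called members per list or else the 2 most abundant, the 3 next largest decreases and the 5 most like CELA1 and BIN2; the per-group values of POU6F1 and SCN8A, and ELN, BIN1, CELA2A, CELA2B and individual markers, were added after their values were seen. Alternatives were other pseudocounts, filters, scalings and priors, leaving out each library, a replicate block and, added after seeing the data, removal of each library's length trend (natural splines of 4 degrees of freedom) and limma-voom on recovered fragments.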

Additional observations from a re-analysis of the deposited data

How the results depend on the processing

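CELA1 and BIN2 were lower in SLCDS under all 17 and 16 alternatives that could be computed (BIN2 is not tested at a mean FPKM of at least 5). CELA1 ranged from -3.73 (limma-voom on recovered fragments) to -3.17 (without control replicate 3), with -3.69 at a pseudocount of 0.1. BIN2 was -2.55 at a pseudocount of 0.1, -1.66 at 0.5 and -2.95 with limma-voom. With each library left out in turn they ranged from -3.43 to -3.17 and from -1.25 to -1.14. Of the 4 positional neighbours, 0 passed in limma over all libraries, 0 to 1 with a library left out (SLC4A8, without control replicate 3) and 2 with the length trend removed (SLC4A8 and DAZAP2).

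Over all tested genes 701 passed, 324 at a mean FPKM of at least 5, 1523 with the length trend removed, and 276 to 3191 with a library left out, the highest without control replicate 3 and the lowest without SLCDS replicate 1. Of the listed genes 12 passed, 4 at a mean FPKM of at least 5, 22 with the length trend removed and 6 to 29 with a library left out. With the replicate number as a block 455 passed. Same-numbered libraries did not all deviate together (r of -0.326, 0.36 and 0.065 over genes) and no label ties them, so the numbers were not used to pair libraries, and no member changed its call under the block. Of 10 named genes that passed, 6 passed in every alternative that tested them.

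Signs turned only for genes that did not pass. With each library left out in turn, SMAGP ranged from -0.299 to 0.03, ACVR1B from -0.018 to 0.129 and SH3GL1 from -0.216 to 0.022, each turning without control replicate 3. CSRNP2 ranged from -0.047 to 0.016 (turning without control replicates 1 or 2, and at 0.02 with equal FPKM sums), SLC11A2 from -0.119 to 0.011 (without control replicate 1) and TFCP2 from -0.09 to 0.018 (without SLCDS replicate 1). The cause was not tested. Depth limits GALNT6 and, in SLCDS, BIN2.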
